A study of Xenopus laevis with 79 samples.

Results

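The cell cycle genes of the *Xenopus laevis* ectoderm were taken from the count tables by name. A locus was a member if its name began with that of a cyclin (ccna, ccnb, ccnd, ccne), a cyclin-dependent kinase or its inhibitor, a Cdc gene, an Mcm gene, an Aurora, Polo, Bub, Chek or Wee kinase, or an E2F factor, and if 2 or more libraries had over 10 counts of it. Of 45099 loci, 124 had such a name and 120 passed the count minimum, which 25172 loci passed in all. The 4 names that did not pass were cdc42ep1-like.s, cdk6.s, cdkn2b.s and cdkn2b.l, and the last of these exceeded 10 counts in 1 library, with 21 counts. Just inside the limit, plk1s1-like.l reached 11 counts and ccnb1ip1.l reached 12. The frog is an allotetraploid, and most genes exist as copies on long (.l) and short (.s) chromosomes: 66 members carried the first suffix, 49 the second and 5 neither, and 47 names were present in both forms.

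The name rule gathers genes of the cycle and some that share only a prefix. By known function, 86 members were placed in the cycle. They were 12 subunits of the Mcm2 to Mcm7 replicative helicase, 3 other Mcm genes, 3 Cdc genes of replication, 18 cyclins, 2 Cdk1 loci, 4 Cdk inhibitors, 6 Cdc25 phosphatases, 4 checkpoint kinases, 11 E2F factors, 4 Aurora, 8 Polo and 3 Bub loci, 3 subunits of the anaphase-promoting complex, 4 Cdc14 phosphatases and cdc20b-like.l. The other 34 were set apart: 15 encode partners of the Cdc42 GTPase, and 7 have names built on that of a cycle protein. Another 12 carry a Cdc name from yeast genetics, such as the splicing factors Cdc40 and Cdc5l and the Paf1 complex subunit Cdc73. These 12 include both copies of cdc34, which also has a known part in the cycle, so the division is approximate. The 34 are counted apart wherever it matters. A name search in RefSeq matched 105 of the 120 members. Several well-known cycle genes, among them pcna, cdk2, cdk4, wee1, cdc6 and cdc20, were not found under those names and are not analysed here.

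Cell division is driven by cyclins, which rise and fall and switch on cyclin-dependent kinases. Cyclin D and cyclin E act before DNA replication, cyclin A during it and cyclin B at mitosis. Cdc25 phosphatases activate the kinases, while inhibitors of the p21 family block them. The Mcm helicase is loaded at replication origins and opens them with Cdc45 once the Cdc7 kinase has acted, and Chk1 slows the cycle when replication falters. In the frog, the first divisions run on maternal stores and lack gap phases, and after the midblastula transition the cycle lengthens and zygotic genes take over. In the epidermis, future multiciliated cells leave the cycle and then use Plk4, otherwise the kinase of centriole duplication, and Cdc20b to make many centrioles.

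All embryos were wild type, and each regional library was made from a fragment dissected from 1 embryo, so that several regions could come from the same animal. At St. 12.5, the start of neurulation, the 7 regions were the anterior and posterior neural plate (NPa, NPp, 3 libraries each), the anterior, posterior and lateral neural border (NBa 4, NBp 3, NBl 3), the anterior neural border with the preplacodal ectoderm (ANB/PPE, 3) and the nonneural ectoderm (NNE, 3). At St. 14, mid-neurula, they were NPa (3), NPp (4), NBa (6), NBp (5), the anterior neural fold with the preplacodal ectoderm (ANF/PPE, 5) and anterior and posterior nonneural ectoderm (NNEa, NNEp, 3 each), with 2 undivided NP and 4 undivided NB libraries described only. Neural crest (NC, 4) and placodes (Pc, 2) were taken at St. 17, and whole embryos at 8 stages from St. 11-11.5 to St. 18-19, 2 libraries each. By the study's methods, posterior fragments can carry attached mesoderm cells.

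The 79 libraries held 8898486 to 18468048 counts on loci (median 13134905). Levels are CPM, the counts of a locus scaled to a common library total, and were compared within a gene, never between genes. Tests are edgeR quasi-likelihood F tests over all loci, with the Benjamini-Hochberg false discovery rate (FDR) called at 5%, and differences are log2 with their standard error (SE). All 9 neural plate marker loci tested were higher in the neural plate than in NNE at both stages, and all 14 nonneural ectoderm loci were lower. By the study's methods, fragments had been selected by qPCR of markers that included sox2 and an epidermal keratin. The neural plate list also holds zc4h2 and rfx4, which the paper picked from these same libraries. The outcome was thus partly built in and is no independent check of the region labels. Against those labels, 2 libraries stood apart: St. 12.5 NPp replicate 2 had a summed mesoderm marker level of 688 CPM, where the next NPp library had 112, and St. 14 NPa replicate 3 had a nonneural ectoderm sum of 6111 CPM, where the next had 1652. Counts of calls without these libraries are given below. Since the tissue was measured in bulk, fewer cells that express a gene and less RNA per cell cannot be told apart.

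The first question was whether neural and nonneural ectoderm differ in cycle genes. At St. 12.5, 57 of 116 members tested differed among the 7 regions (background over all loci 38.4%). The direct comparison of NP, the mean of NPa and NPp, with NNE gave 50 calls, 38 higher in NP and 12 lower (background 39.8%, or 16.4% higher and 23.3% lower). The median log2 difference was 0.42 over the members and 0.07 over all loci. Among the 85 cycle members tested, 31 were higher and 10 lower, with a median of 0.52, and among the 31 other names 7 were higher and 2 lower, with a median of 0.23. Scaling by total counts alone moved the median of all loci to 0.33 and the split to 57 higher and 7 lower. Without NPp replicate 2 there were 36 higher and 12 lower.

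Replication genes were largely on the neural side. Of the 12 Mcm helicase loci, 8 were higher in NP, none was lower and all 12 differences were positive, with a median of 0.79. In the 6 NP libraries mcm5.l lay between 323 and 582 CPM (median 484), and in the 3 NNE libraries between 155 and 207. The groups did not overlap, and the difference was 1.19 ± 0.20 (FDR 8.07e-05). The same held for mcm4.s, with 88.6 to 213 CPM in NP (median 156) and 27.9 to 56.2 in NNE, a difference of 1.60 ± 0.34 (FDR 0.000718). All 3 Cdc genes of replication were higher as well. For cdc45-like.l, the helicase partner, NP held 19.2 to 35.2 CPM (median 25.4) and NNE 7.62 to 9.73, a difference of 1.52 ± 0.24 (FDR 2.77e-05). The kinase gene cdc7.l differed by 1.28 (FDR 0.00805), but without NNE replicate 1 by 0.97 (FDR 0.059).

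Cyclins followed, with 3 of 4 cyclin A, 5 of 6 cyclin B, 3 of 4 cyclin D and 3 of 4 cyclin E loci higher in NP. The G1 cyclin gene ccnd1.l ranged from 17.8 to 59.1 CPM in NP (median 29.2) and from 8.39 to 12.8 in NNE, without overlap, and differed by 1.62 ± 0.29 (FDR 0.000117). The cyclin E gene ccne2.l, which acts at S phase entry, ranged from 131 to 307 CPM (median 185) and from 57.8 to 74, a difference of 1.48 ± 0.34 (FDR 0.00132). Among mitotic cyclins, ccnb3.s ranged from 230 to 536 CPM (median 271) and from 113 to 128, a difference of 1.26 ± 0.24 (FDR 0.000277). Cyclin B2 was the exception, since its copies moved in opposite directions: ccnb2.s was higher in NP by 0.66 and ccnb2.l was lower, with a difference of -0.51 (FDR 0.0467). Both calls rested on single libraries, as ccnb2.s had an FDR of 0.0571 without NNE replicate 3 and ccnb2.l an FDR of 0.168 without NNE replicate 2. Of the mitotic regulators, the kinase gene plk1.l was higher in NP by 0.87, and the spindle checkpoint kinase gene bub1.l by 0.91 (FDR 0.0146, or 0.0677 without NNE replicate 2). The mitotic kinase gene aurka.l was lower in NP (-0.53, FDR 0.0228), a call lost without NPp replicate 3 (-0.28, FDR 0.195) and with total-count scaling (FDR 0.279). No Cdk1 locus, checkpoint kinase or anaphase-promoting complex subunit was called, out of 2, 4 and 3 tested.

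The members lower in the neural plate were led by genes of centriole production. cdc20b-like.l had 58.7, 78.7 and 88.7 CPM in NNE, between 0 and 0.71 in the 6 NP libraries and between 0.192 and 0.896 in the 7 libraries of NBa and NBp. Between these extremes lay NBl with 4.37, 6.47 and 13 CPM and ANB/PPE with 17.1, 12.4 and 4.06. NBl and ANB/PPE were thus intermediate, with overlapping values, while NBa and NBp were near NP. The difference between NP and NNE was -8.65 ± 0.61 (FDR 1.64e-09). plk4.s had a similar pattern, with 23.9, 19 and 29.7 CPM in NNE, 2.38, 2.8 and 6.94 in NBl and 7.62, 2.96 and 1.35 in ANB/PPE. In NP, NBa and NBp plk4.s had at most 1.35 CPM, and it differed between NP and NNE by -6.07 ± 0.55 (FDR 3.03e-08). Its partner copy plk4.l differed by -0.69 (FDR 0.0135), which without NPp replicate 3 was -0.46 (FDR 0.091). The phosphatase gene cdc14a-like.s had 14 to 19.3 CPM in NNE and 0.0862 to 4.39 in the 19 other libraries, a difference of -3.99 ± 0.53 (FDR 4.4e-06).

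Markers of multiciliated cells, a list that itself includes plk4, moved with these genes. Of 20 marker loci tested, 18 were lower in NP and 1 was higher, and their sum over 22 loci was 1271 to 1684 CPM in NNE, 207 to 319 in NP and 128 to 578 elsewhere. Their part in the result was not tested. Of the defining regulators, foxn4.s averaged 122 CPM in NNE and myb.s 30.3, while gmnc-like.s was at 0 there. That value covers the short-chromosome copy only, and the paper lists the gmnc-like copies among pairs that differ in spatial expression. Over the 14 region means of both stages, the loci most like cdc20b-like.l among 19805 were xelaev18010956m.g and xelaev18002015m.g (Pearson r 0.986 each) and myb.s (0.982). The paper's supplement labels xelaev18010956m.g as mcidas. These means share libraries and scaling, and the coefficients are a description.

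**Figure D1:**
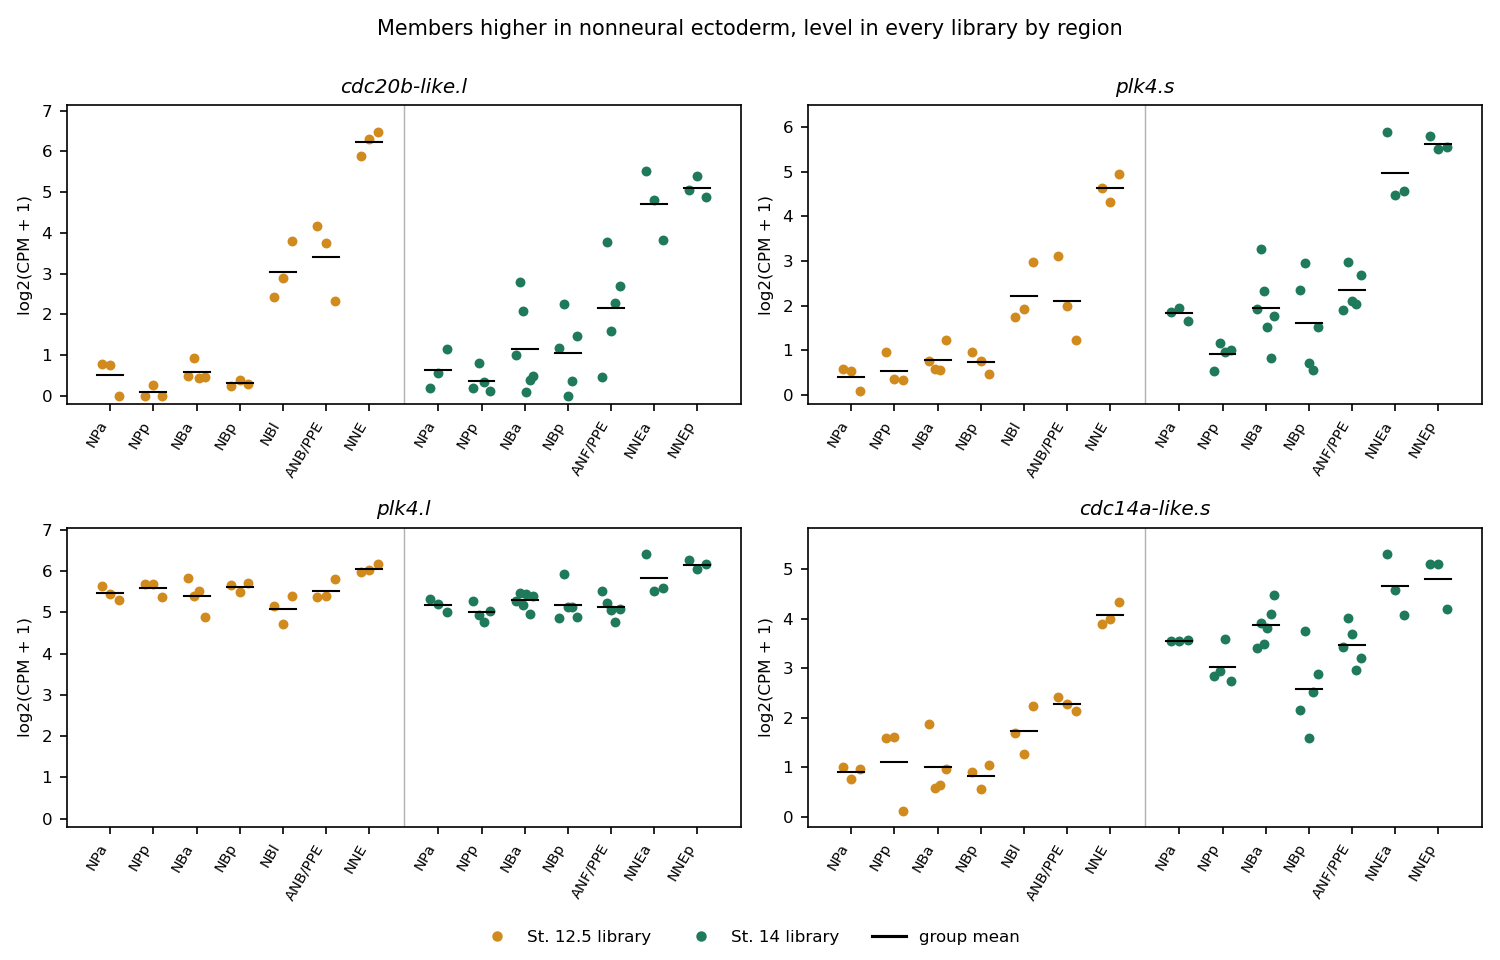
Levels of cdc20b-like.l, plk4.s, plk4.l and cdc14a-like.s as log2(CPM + 1) on the vertical axis, with 1 point per library for each region of St. 12.5 and St. 14 and a bar at the group mean. For cdc20b-like.l the 3 NNE libraries of St. 12.5 sit at 58.7 to 88.7 CPM, and the 6 NP libraries at 0.71 CPM or less.

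Other members were also low in NP. The Polo kinase gene plk2.l had 14.3 to 27 CPM in NNE and 4.67 to 17.3 in NP (median 6.89), so the groups overlapped, and differed by -1.43 (FDR 0.000715). The Cdc42 effector gene cdc42ep2.l had 9.28 to 14.4 CPM in NNE and 0.595 to 3.54 in NP, a difference of -2.42 (FDR 1.14e-05). The p21 gene cdkn1a.l had 5.49 to 10.4 CPM in NNE and 0.345 to 6.8 in NP, with a difference of -1.77 (FDR 0.0248). That call was lost without NNE replicate 3 (-1.54, FDR 0.104) and with total-count scaling (FDR 0.0666). The largest positive differences were those of Cdc42 partners, which are not cycle genes: cdc42se2-like.1.l (3.26, FDR 0.00013), cdc42ep4.1 (2.23) and cdc42se2-like.1.s (1.73). The first of these had 3.79 to 75.9 CPM in NP (median 20.1) and 1.38 to 3.23 in NNE. The loci most like it over the 14 region means were litaf.s, xetrov90008836m.l and dnajc30.l (Pearson r 0.943, 0.942 and 0.941).

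At St. 14 the same comparison gave 64 calls of 117 members, 51 higher in NP and 13 lower (background 46.5%, or 23.2% and 23.3%), and 67 members differed among the 7 regions (background 54.9%). The median was 0.39 over members and 0.05 over all loci. The 86 cycle members had 39 higher and 10 lower, and without NPa replicate 3 the members had 48 and 13. No library is shared between the stages. In NP 26 members were higher at both, 68.4% of those called higher at St. 12.5 and 51% at St. 14. Lower at both were 6 members, 50% and 46.2%. The same overlap was not computed over all loci, so these shares have no background. Again 8 of 12 Mcm helicase loci were higher and none lower (median 0.67). mcm5.l had 241 to 310 CPM in the 7 NP libraries (median 280) and 105 to 229 in the 6 NNE libraries (median 156), a difference of 0.78 (FDR 9.45e-05), and mcm4.s differed by 1.32 ± 0.26 (FDR 0.000211).

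Mitotic genes were on the neural side too. All 3 Bub loci, 5 of 6 cyclin B loci and 2 of 4 Aurora loci were higher in NP. For bub1.l the NP libraries held 54.1 to 92.2 CPM (median 70.1) and the NNE libraries 20.8 to 39.2 (median 31.7), without overlap, with a difference of 1.28 ± 0.21 (FDR 2e-05). For ccna2.l they held 118 to 179 (median 153) and 44.2 to 126 (median 65.5), which overlapped, with a difference of 1.02 (FDR 4.79e-05). For plk1.s, the mitotic Polo kinase, the values were 180 to 229 (median 196) and 71.1 to 133 (median 125), and the difference was 0.75 (FDR 3.27e-05). Among genes outside the name rule, 30 of 51 other S phase loci were higher in NP at St. 12.5 and 25 of 51 at St. 14, with 3 lower at each stage. Other G2 and M phase loci were higher for 21 of 57 at St. 12.5 and 37 of 58 at St. 14, with 1 and 0 lower. Loci of G1 control were divided, with 6 higher and 8 lower of 29 at St. 12.5, and 6 and 6 of 29 at St. 14. Over all loci 16.4% were higher and 23.3% lower at St. 12.5, and 23.2% and 23.3% at St. 14.

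**Figure D2:**
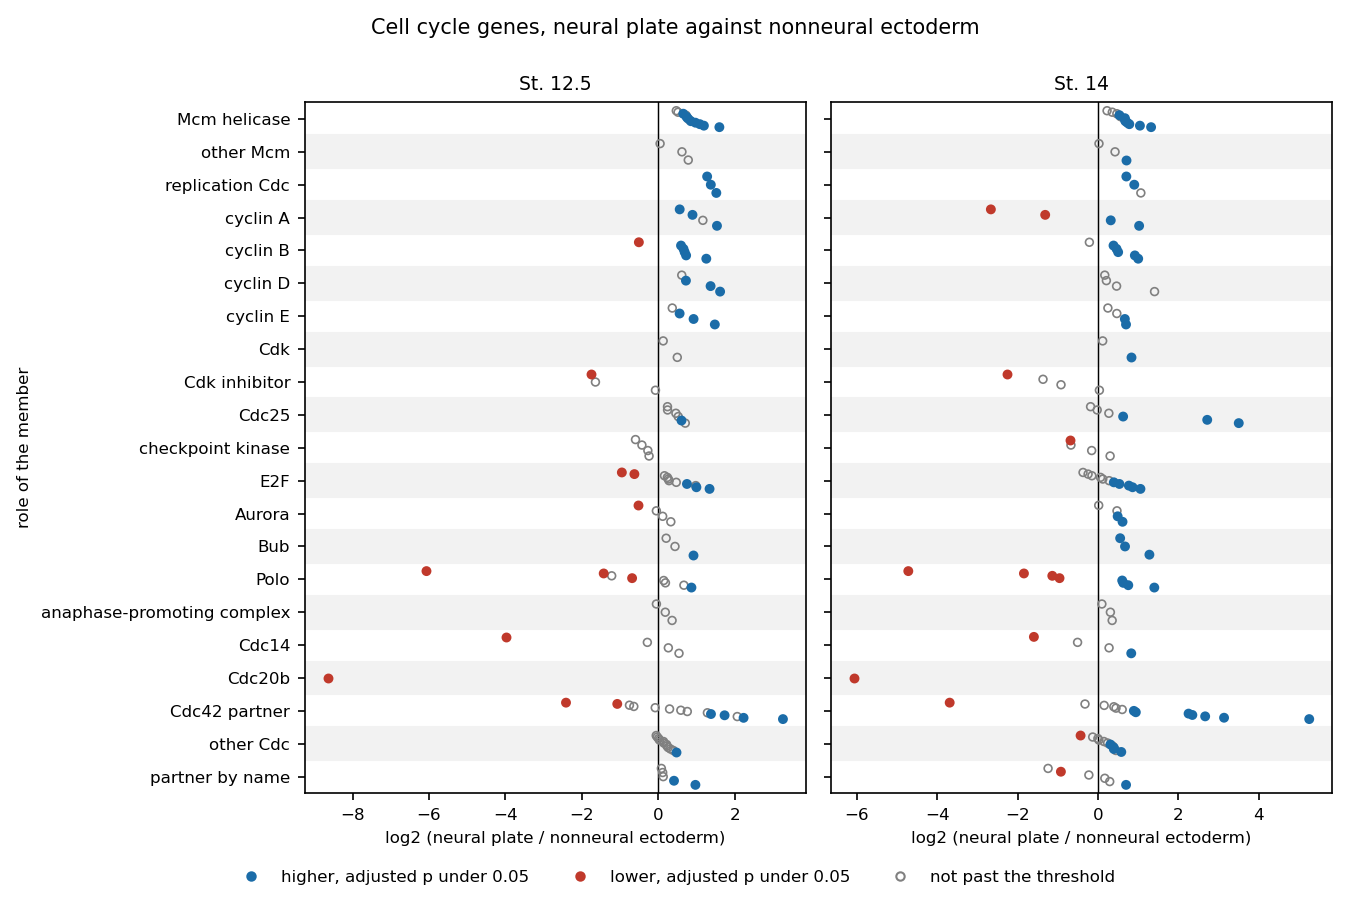
Log2 difference between neural plate and nonneural ectoderm for every member tested, grouped by role, at St. 12.5 and St. 14, with filled points for members at an FDR under 5% and open points for the rest. The 12 Mcm helicase loci lie to the positive side at St. 12.5 (median 0.79), while cdc20b-like.l (-8.65) and plk4.s (-6.07) lie farthest to the negative side.

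The phosphatase gene cdc25b stood out at St. 14. Its product activates Cdk1, and in the chick neural tube it promotes neuron production. For cdc25b.l, NPa had 105, 76.9 and 171 CPM and NPp 217, 257, 370 and 197, while NNEa had 19.1, 44.2 and 14.5 and NNEp 35.2, 41 and 4.95. The 7 NP libraries were all above the 6 NNE libraries, and the difference was 2.72 ± 0.67 (FDR 0.00153). cdc25b.s had 29.1 to 106 CPM in NP (median 71.7) and 1.74 to 19.5 in NNE (median 4.06), a difference of 3.50 ± 0.80 (FDR 0.000831). The border libraries were uneven, with cdc25b.l at 6.06 to 230 CPM in NBp and 9.37 to 110 in NBa. At St. 12.5 neither copy was called (0.71, FDR 0.228, and 0.52, FDR 0.446). Primary neuron markers moved with it: 11 of 17 loci were higher in NP at St. 14, their sum was 503 to 1712 CPM in NP and 54.5 to 378 in NNE, and at St. 12.5 2 of 14 were higher and 3 lower. neurod1.s stayed below 1 CPM in every region mean of St. 14. Their part in the cdc25b result was not tested.

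plk4.s, cdc20b-like.l and cdc14a-like.s remained low in NP at St. 14. plk4.s had 58.5, 21.2 and 22.5 CPM in NNEa, 54.7, 44.7 and 45.5 in NNEp and 0.463 to 2.89 in NP (median 1.23), a difference of -4.72 ± 0.55 (FDR 4.24e-07), and plk4.l differed by -0.96 (FDR 9.66e-05). cdc20b-like.l had 44.8, 26.8 and 13.2 CPM in NNEa, 32.1, 40.9 and 28.5 in NNEp and at most 1.22 in NP, a difference of -6.08 ± 0.95 (FDR 1.36e-05). cdc14a-like.s had 15.8 to 38.6 CPM in NNE (median 28.4) and 5.7 to 11.2 in NP (median 10.7), a smaller difference of -1.60 ± 0.32 (FDR 0.000207). Multiciliated markers, plk4 again among them, were lower in NP for 14 of 20 loci and higher for 1. Their sum was 426 to 817 CPM in NNEa and 225 to 248 in NPa, while NPp, with 478 to 599, overlapped NNE. plk2.l again differed (-1.84, FDR 0.000732), with 25.7 to 61.5 CPM in NNE and 5.38 to 15.2 in NP. So did cdc42ep2.l (-3.69, FDR 1.5e-07) and plk2.1 (-1.14, FDR 0.0219, or 0.0618 without NPa replicate 1). The Cdc42 partners cdc42se2-like.1.l (3.14), cdc42ep4.1 (2.67) and cdc42se2-like.1.s (2.25) were again higher in NP, as was plk3.s (1.40 ± 0.20, FDR 6.04e-06).

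In 13 members the change from St. 12.5 to St. 14 differed between NP and NNE (background 12.1%, or 7.54% more positive in NP and 4.58% more negative). These were 10.5% of cycle members and 12.5% of the other names, near the background. The 7 members with a more negative change in NP included 5 of the 18 cyclin loci, a share that was not tested. ccnd1.l had a median of 29.2 CPM in NP at St. 12.5 and 11.8 at St. 14, and of 8.69 and 8.27 in NNE, an interaction of -1.22 (FDR 0.0457), and ccnd1.s had the same value (FDR 0.0233). ccne2.l went from a median of 185 to 89.2 CPM in NP and from 71.3 to 65.6 in NNE (-1.31, FDR 0.00869). The embryonic cyclin gene ccna1.l, low in these regions, was called in opposite directions at St. 12.5 and St. 14, with overlapping groups at each. NP held 1.19 to 5.43 CPM and NNE 0.828 to 1.28 at St. 12.5 (1.53, FDR 0.0457). At St. 14 NP held 0 to 0.671 CPM and NNE 0.217 to 2.75 (-2.67, FDR 0.00435). The interaction was -4.26 (FDR 0.00439). The change was more positive in NP for cdc25b.s (2.92, FDR 0.0459), cdc14a-like.s (2.34, FDR 0.00741), cdc42ep4.s (1.90), cdc42bpa.s (1.63), plk3.s (1.2) and chek1.l (0.83). A positive value need not be a rise: cdc42ep4.s fell from a mean of 37.72 to 15.66 CPM in NP and from 71.44 to 10.85 in NNE. Leaving out St. 12.5 NNE replicate 2 lowered the count to 7, and cdc25b.s, cdc42bpa.s, plk3.s, chek1.l, cdc40.s, ccna1.s and both ccnd1 copies each lost their call without some single library, their highest FDRs being 0.0703 to 0.17. Without both libraries that stood apart, 9 members were called.

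Within the neural ectoderm few members were called. Neural border (the mean of NBa and NBp) and neural plate differed at St. 12.5 in 1 member of 116 (background 4.39%, or 3.36% higher and 1.04% lower), plk2.l, which had 11.2 to 27.8 CPM in the border (median 18.3) and 4.67 to 17.3 in the plate (median 6.89), a difference of 1.06 ± 0.25 (FDR 0.0156). The groups overlapped, and no member was called without NBp replicate 3 or without NPa replicate 1, where 15 and 9 members had an unadjusted p under 0.05. Without NPp replicate 2, 4 members were called, 3 of them lower in the border.

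At St. 14 the border differed from the plate in 17 members, 8 higher and 9 lower (background 21.7%, or 12% and 9.69%), and total-count scaling turned this to 3 higher and 13 lower. plk3.s, a Polo kinase gene, had 14.3 to 24.3 CPM in the 11 border libraries and 38.6 to 73.3 in the 7 plate libraries, without overlap, a difference of -1.31 (FDR 1.36e-05). Also lower in the border were cdc25b.s (-1.87, FDR 0.0288, or 0.0762 without NPa replicate 1), cdc42se2-like.1.l (-1.65) and plk3.l (-0.79). cdc14a-like.l (-0.88) and the checkpoint kinase gene chek1.l (-0.42, FDR 0.0179) were also lower, and lost their calls without NPp replicate 4 and NPa replicate 2 (FDR 0.0665 and 0.0667). Higher in the border were cdc42ep2.l, with 4.59 to 16 CPM (median 6.62) against 1.51 to 4.32 in the plate (1.71, FDR 0.00112), plk2.l (1.40, FDR 0.00987) and, by less, cdc25a.l, cdkn2aipnl.s and cdkn2aip.s (0.54, 0.42 and 0.41). With the embryo as a block, plk2.l differed by 0.95 (FDR 0.112). mcm6.l differed by 1.05 without the block (FDR 0.0265) and by -0.15 with it (FDR 0.591). Without NPa replicate 3, the library with high nonneural ectoderm markers, 11 members were called.

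Along the anteroposterior axis few loci of any kind were called. At St. 12.5 members were called at about the rate of all loci, led by the plk3 copies. At St. 14 the rate was lower, with 3.49% of cycle members and 3.23% of the other names called. At St. 12.5, 7 members differed between anterior (NPa, NBa) and posterior (NPp, NBp) libraries, 1 higher anteriorly and 6 lower (background 7.34%, or 2.08% and 5.26%). plk3.l had 16.3, 10.3 and 9.87 CPM in NPa and 13.1, 16.1, 14.2 and 7.31 in NBa, against 77.6, 102 and 30.5 in NPp and 79.9, 62.5 and 95.5 in NBp. Every posterior library was above every anterior one, and the difference was -2.61 ± 0.30 (FDR 5.98e-06). plk3.s repeated it, with 3.08 to 12.1 against 31.9 to 63.9 CPM (-2.47, FDR 1.64e-05). cdc14a-like.l (-2.01, FDR 0.000481) and cdc42se2-like.1.l (-1.93, FDR 0.00207) were also lower anteriorly, as were the low-count copies cdc42ep3.l and cdc42ep3.s, while ccnd1.s was higher (0.93, FDR 0.00871). Mesoderm markers moved along this axis too: 14 of 20 loci were lower anteriorly and none higher, and their sum was 2.63 to 19.3 CPM in NPa and NBa and 86.4 to 880 in NPp and NBp. myf5.l was at 0 in NPa, and t.s averaged 0.263 CPM there, 85.3 in NPp and 242 in NBp. Without NPp replicate 2, the most mesoderm-rich NPp library, plk3.l differed by -2.43 (FDR 2.38e-05), and 7 members were called again. That fit kept all NBp libraries, whose mesoderm sum reached 880 CPM, above the 688 of NPp replicate 2. The part of mesoderm in the result was not tested.

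At St. 14 the axis gave 4 calls, cdkn1a.s, cdc14a-like.s and cdc42ep4.s higher anteriorly and plk3.l lower (background 6.67%, or 3.09% and 3.58%). In the plate, plk3.l had 32.1, 16.7 and 41.8 CPM in NPa and 58.1, 63.4, 48.8 and 61.2 in NPp. Over plate and border together the anterior and posterior libraries overlapped. Their means were 25 and 43.1 CPM, and the difference was -0.72 (FDR 0.023). Its copy plk3.s was not called (-0.31, FDR 0.363). With the embryo as a block none of the 4 was called, and 7 of 117 members had an unadjusted p under 0.05. Calls over all loci fell as well, from 1477 of 22143 to 258 of 21963, so the loss was not particular to members. DESeq2 called 5 and limma-voom 4. Without NPa replicate 2 the number was 1, and without NPa replicate 3 it was 2. Mesoderm markers were lower anteriorly for 7 of 15 loci and higher for 2.

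The p21 gene, which arrests the cycle, was highest at St. 14 in ANF/PPE, where anterior neural fold and preplacodal ectoderm were dissected together and cannot be told apart. At St. 14 cdkn1a.l had 2.68, 28.9, 12.1, 49.4 and 23 CPM in the 5 ANF/PPE libraries and 0.0685 to 1.81 (median 0.648) in the 24 libraries of the other regions. cdkn1a.s had 4.46, 5, 11.3, 22.5 and 5.48 CPM against 0.0886 to 2.82 (median 1.13). All ANF/PPE libraries were thus above all others for both copies, and the regional difference had an FDR of 2.6e-07 and 1.2e-05. At St. 12.5 the ANB/PPE values of cdkn1a.l were 10.3, 5.26 and 15.1 CPM, the NNE values 5.49, 8.34 and 10.4, and the rest 0.277 to 6.8 (FDR 0.000464 over the regions), so the high level was then common to both regions.

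**Figure D3:**
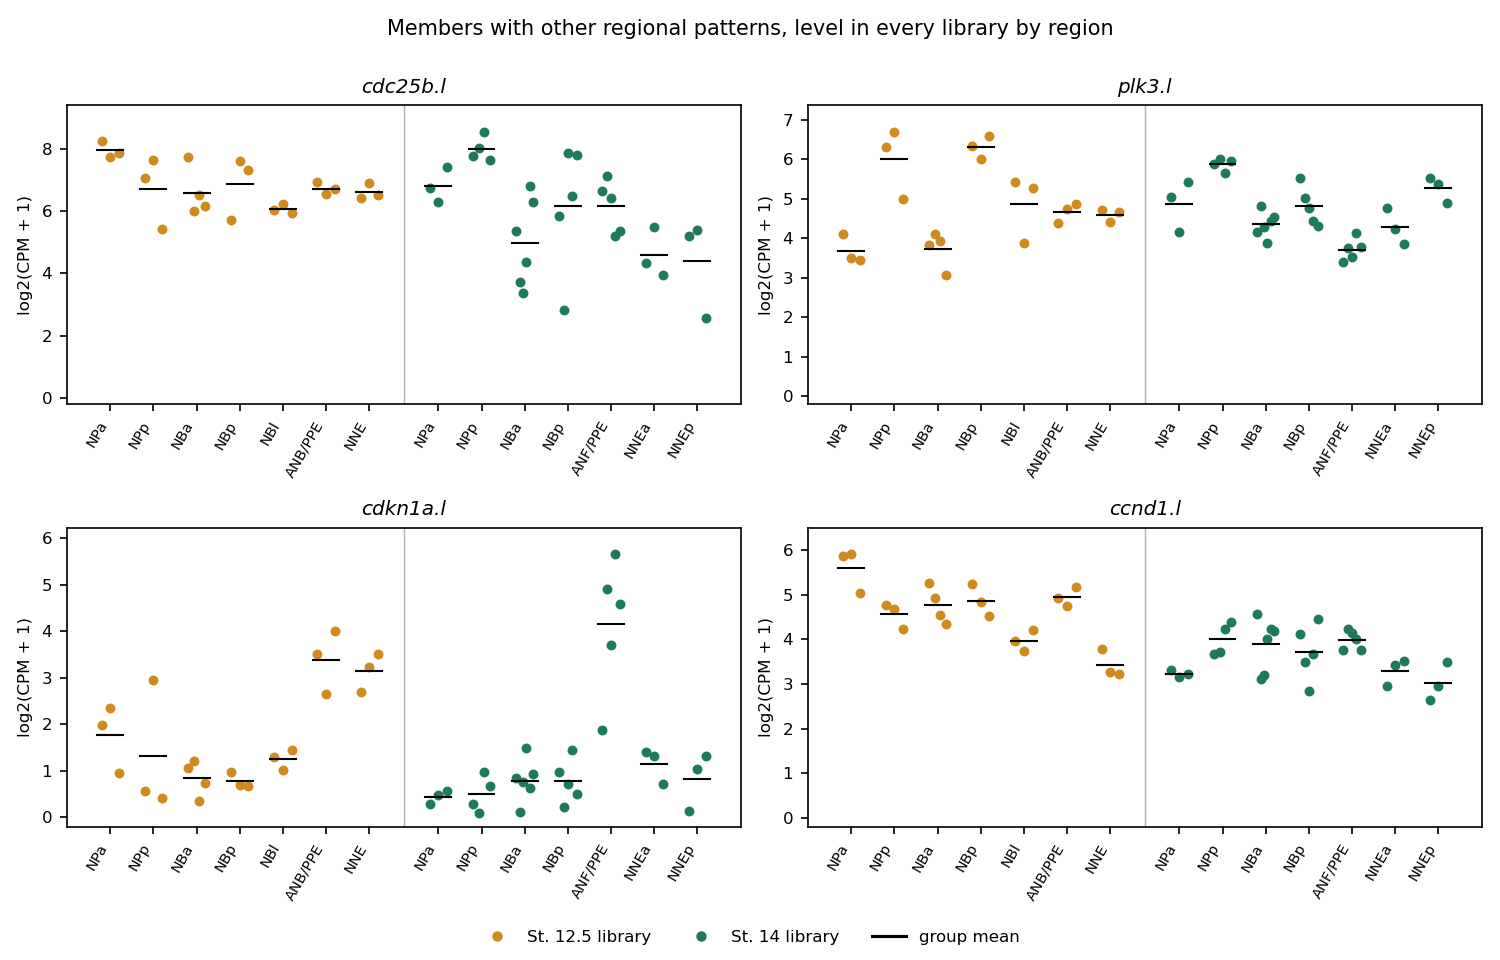
Levels of cdc25b.l, plk3.l, cdkn1a.l and ccnd1.l as log2(CPM + 1) in each region of St. 12.5 and St. 14, with 1 point per library and a bar at the group mean. plk3.l is at 30.5 CPM or more in the 6 posterior libraries of St. 12.5 and at 16.3 or less in the 7 anterior ones, and cdkn1a.l at St. 14 is above 1.81 CPM in the 5 ANF/PPE libraries alone.

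From St. 12.5 to St. 14 more cycle genes fell than rose. Averaged over 6 regions, 93 of 118 members changed, 28 up and 65 down (background 68.5%, or 34.5% and 34.1%), with a median of -0.32 over members and 0.07 over all loci. Of the 86 cycle members 20 rose and 49 fell. Without both libraries that stood apart, 29 rose and 54 fell. The stages were compared across different embryos. All 4 cyclin A, 6 cyclin B, 4 cyclin D and 4 cyclin E loci fell, as did both Cdk1 loci and 4 of 6 Cdc25 loci, with none of these rising. ccnb1.2.l went from 207 to 710 CPM (median 309) in the 19 libraries of the 6 regions at St. 12.5 to at most 251 (median 176) in the 29 at St. 14, a change of -0.98. ccna2.l had a median of 255 CPM (highest 456) and then of 126 (44.2 to 179), a change of -1.06 (FDR 3.26e-13). Of the cyclins, ccnd2.s had the largest change, with 3.85 to 12 CPM (median 6.7) and then 0 to 4.06 (median 0.333), a difference of -3.34 (FDR 7.87e-12), and ccnd2.l changed by -2.43.

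Checkpoint kinase Chk1 went the other way. chek1.l had 3.07 to 10.8 CPM (median 5.96) at St. 12.5 and 19 to 37 (median 24.7) at St. 14, without overlap, a change of 2.03 ± 0.10 (FDR 1.82e-21), and chek1.s changed by 1.91. Other members that rose were cdc14a-like.s (2.37), mcm9-like.l (1.57), cdc37l1.1 (1.54), cdc123.l (1.44) and plk4.s (1.42). plk4.l fell by 0.38 on the log2 scale.

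Of the Mcm helicase loci 8 fell and 1 was called higher, mcm6.2.s (0.31), which lost its call without any 1 of 14 libraries (FDR up to 0.0744). mcm3.l had the largest change (-3.11, FDR 4.32e-14), from a mean of 3.63 to 0.447 CPM. mcm6.l went from 56.6 to 203 CPM (median 105) to 5.85 to 54.5 (median 13.2), a change of -2.85 ± 0.18 (FDR 7.56e-18). By contrast, mcm6.2.l stayed at medians of 173 and 183 CPM. RefSeq lists mmcm6 as a synonym of mcm6.l and zmcm6 of mcm6.2.l, names given to the maternal and zygotic Mcm6 forms known in *Xenopus*. At St. 14 the libraries of a region were uneven in this pair. NBa had 36, 9.02, 12, 14.3, 54.5 and 34.7 CPM of mcm6.l. Its replicates 5 and 6, which share an embryo number, had 79 and 97.6 CPM of mcm6.2.l where the other NBa libraries had 212 to 255. The undivided libraries of St. 14 had 38.2 to 85.6 CPM of mcm6.l in NB and 32.1 and 35.6 in NP, above the 7.45 to 17.5 of the divided NP. Also falling were cdc42se2-like.2.s (-1.83), cdc42ep4.s (-1.57) and plk1s1-like.s (-1.43).

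**Figure D4:**
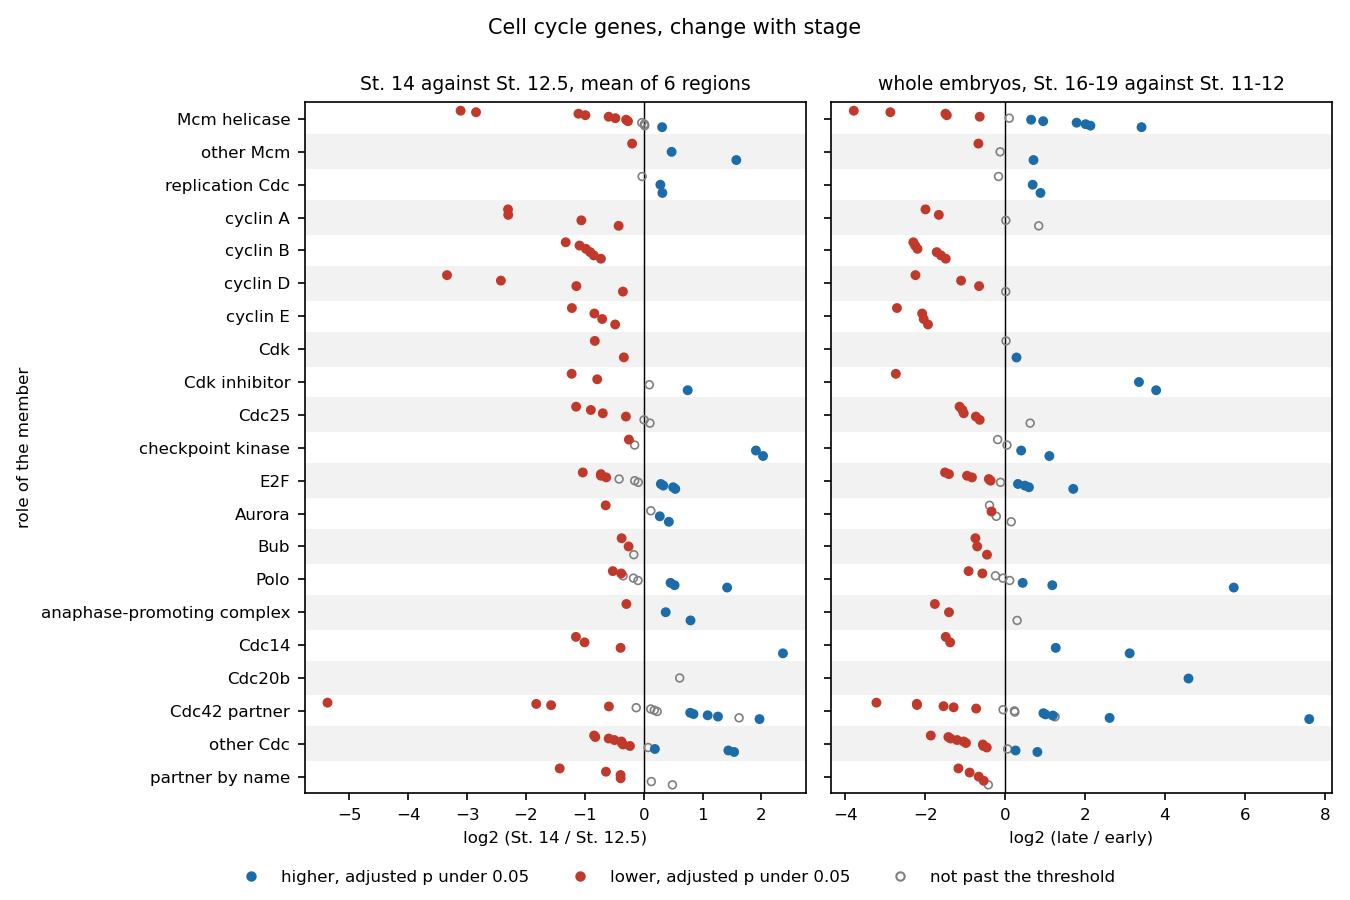
Log2 change of every member tested from St. 12.5 to St. 14 (mean of 6 regions) and from early to late whole embryos, grouped by role, with filled points for members at an FDR under 5% and open points for the rest. All cyclin B and cyclin E loci lie to the negative side in both, while chek1.l (2.03) and, in whole embryos, plk4.s (5.72) lie to the positive side.

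Copies of a gene did not always change together. Of 45 pairs tested for stage, both copies rose in 3, both fell in 19, 1 alone was called in 16 and the copies went opposite ways in 7: aurka, cdc123, cdc14a-like, cdc27, cdc73, cdkn1a and plk4. The cdkn1a pair is a weak case. cdkn1a.l was called lower (-1.22), yet its mean was 4.18 CPM at St. 12.5 and 4.45 at St. 14, and cdkn1a.s was near the threshold (0.75, FDR 0.0446). Between NP and NNE, copies went opposite ways in 1 of 44 pairs at St. 12.5 (ccnb2) and 1 of 45 at St. 14 (cdc40, 0.31 and -0.43). Pairs were not counted over all loci, so these numbers have no background. Read pairs that map to more than 1 place had been excluded by the authors, so copies that are close in sequence keep fewer reads and their levels are uncertain.

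The whole embryos carried the series over a longer time. Before these results, the St. 14 pair needs mention: in 62 of 117 members (53%) and 51.7% of 23274 loci both libraries lay outside the range of the 4 libraries of the neighbouring stages, where at the other inner stages the share was 3.42 to 33.3% of members. It enters the test over all 8 stages, in which 99 members differed (background 77.2%), or 89 without it, but not the comparison of late (St. 16-17 and St. 18-19) with early (St. 11-11.5 and St. 12) embryos, 4 libraries each. That comparison had 93 calls, 31 higher late and 62 lower (background 73.7%, or 39.3% and 34.4%), with a median of -0.45 over members and 0.10 over all loci. Regions and whole embryos share no library. In both, 47 members fell, 72.3% of those that fell between the regional stages and 75.8% of those that fell in whole embryos. Another 13 rose in both, 46.4% and 41.9%. For these shares too, no overlap over all loci was computed.

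All 6 cyclin B and 4 cyclin E loci fell, as did 2 of 4 cyclin A loci. ccnb1.2.l had 851 and 664 CPM at St. 11-11.5, 287 and 313 at St. 12, 177 and 183 at St. 12.5, 125 and 133 at St. 13 and 110 and 96.9 at St. 18-19, with 218 and 215 in the St. 14 pair that stands apart. The change from early to late was -2.30 (FDR 7.92e-10). ccne1.s went from 432 and 443 CPM to 49.1 and 49.7, a change of -2.71 (FDR 2.27e-10). mcm3.l (-3.79), cdc42se2-like.2.s (-3.22) and ccnb2.l (-2.25) fell as well.

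The Mcm helicase was divided, with 6 loci higher late and 5 lower. mcm6.l went from 172 and 87.9 CPM at St. 11-11.5 to 20.5 and 11.8 at St. 18-19 (-2.87, FDR 1.66e-07), as mcm6.2.l went from 10.2 and 17.6 to 115 and 119 (2.14). The genes thus changed in opposite directions. mcm5.s rose from 1.65 and 1.06 CPM to 36 and 45.2 (3.42, FDR 2.47e-07), reaching 17.5 and 23.2 by St. 12.5. Copies of mcm2 parted, mcm2.s rising by 1.79 and mcm2.l changing by -0.64.

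plk4.s, cdc20b-like.l and both cdkn1a copies rose over these stages, while plk4.l was not called (-0.05, FDR 0.613) and the Cdk inhibitor gene cdkn2c.s was lower late (-2.74, FDR 0.00567) at mean levels of 0.0957 and 0.243 CPM. plk4.s had 0.0636 and 0.353 CPM at St. 11-11.5, 3.73 and 3.96 at St. 12.5, 20.4 and 18.8 at St. 13 and 22.4 and 21.6 at St. 18-19, a change of 5.72 ± 0.32 (FDR 1.01e-08). cdc20b-like.l rose from 0.382 and 0.118 CPM to 18.1 and 19.3 (4.58, FDR 2.52e-06). cdkn1a.l rose from 0.445 and 1.94 CPM to 16.5 and 25.8 (3.35, FDR 1.97e-06), and was at 1.96 and 0.989 in the St. 14 pair. cdkn1a.s (3.78) and cdc14a-like.s (3.12) rose too. cdc42ep1-like.l, a Cdc42 partner, was called higher late, but it had no count in the 4 early libraries and no fold is given for it.

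**Figure D5:**
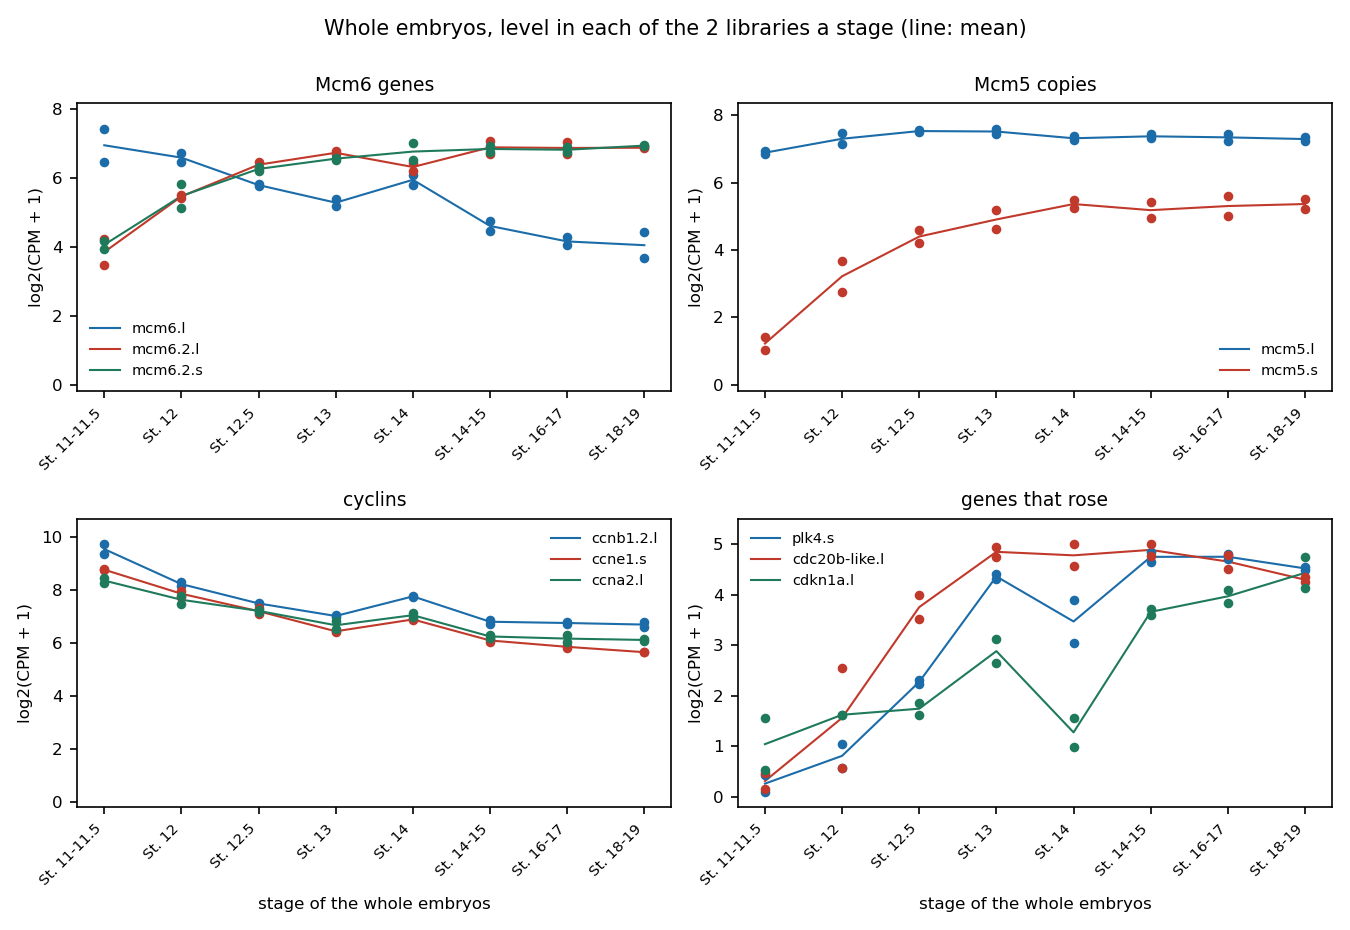
Levels in whole embryos as log2(CPM + 1) against stage, from St. 11-11.5 to St. 18-19, for Mcm6, Mcm5, cyclin and rising genes, with 1 point for each of the 2 libraries per stage and a line through their mean. mcm6.l falls from 172 and 87.9 CPM to 20.5 and 11.8 as mcm6.2.l rises from 10.2 and 17.6 to 115 and 119, and for mcm6.l, ccnb1.2.l, plk4.s and cdkn1a.l the St. 14 pair lies outside the values of the neighbouring stages.

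At St. 17, neural crest and placode libraries differed in 26 of 112 members, 14 higher in NC and 12 lower (background 31.7%, or 12.6% and 19%), and with total-count scaling 22 were higher and 10 lower. With 2 Pc libraries the result leaned on each: without Pc replicate 2, 5 members were called, with the lone placode library assumed to vary like the NC libraries. plk4.s had 19.5, 11, 19.1 and 18.5 CPM in NC and 65.2 and 103 in Pc, a difference of -2.21 ± 0.26 (FDR 0.000391), and cdc20b-like.l had 13.1, 10.5, 14.4 and 8.76 against 31.8 and 52.7 (-1.76, FDR 0.00131). ccna1.s had 5.88, 3.3, 4.61 and 1.93 CPM against 23.7 and 33.4 (-2.77, FDR 0.000764), and ccna1.l, ccnd2.s and cdc25b.l were also lower in NC (-2.09, -1.60 and -1.43). Of these, ccna1.l and cdc25b.l lost their call without Pc replicate 2 (FDR 0.186 and 0.145), and ccnd2.s without Pc replicate 1 (FDR 0.139). Multiciliated markers, a list that includes plk4, were lower in NC for 15 of 20 loci and higher for none. Their sums were 175 to 249 CPM in NC and 516 to 786 in Pc, and their part was not tested.

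Higher in NC were cdc42bpa.s (0.98), cdc42se2-like.1.s (0.98), cdc7.l (0.91), cdc45-like.l (0.91), e2f4.s (0.89) and e2f6.s (0.79). cdc7.l had 24, 15, 16.3 and 13.1 CPM in NC and 10.3 and 8.98 in Pc. Each of these 6 calls was lost without Pc replicate 2, which leaves 1 placode library whose spread is taken from the NC libraries. Such a fit cannot decide whether the calls hold. Other S phase loci were higher in NC for 12 of 51 and lower for 1, and other G2 and M phase loci for 8 and 1 of 58. Over all loci 12.6% were higher in NC and 19% lower.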

How the data were processed

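Strand-specific polyadenylated RNA of single dissected fragments or whole embryos was sequenced on 79 libraries. The authors aligned read pairs with TopHat 2.0.14 to genome 9.1, excluded multi-mapped pairs and deposited HTSeq counts per locus of annotation 1.8 merged with assembled transcripts (1.8.3). The 5 summary entries of each table (15.67 to 25.51% of its total) were left out. No pair of libraries was identical.

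Counts were analysed in R 4.3.3 with edgeR 4.0.16 (TMM scaling, quasi-likelihood F test, loci for which 2 or more libraries of the fit had over 10 counts, Benjamini-Hochberg adjustment over all loci tested, threshold 0.05). The 13 comparisons used 5 fits, without covariates: the 22 libraries of St. 12.5, the 29 of St. 14, both together, the 16 whole embryos and the 6 of St. 17. By the study's methods, replicates came from different embryos and clutches, but by the labels some St. 14 regions hold 2 libraries of 1 embryo. CPM values use TMM factors over all libraries. Each comparison names up to 6 members per direction with the largest called difference and at least 5 CPM in the higher group, or up to 5 members with the smallest p, and the members of a roster of cell cycle genes. The members and lists were chosen with earlier results of these data known. The scripts were tested on simulated data.

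Embryo numbers in the labels were read as marking shared animals. Deviations from group means correlated within an embryo (median r 0.237 over 63 pairs at St. 12.5 and 0.145 over 51 pairs at St. 14). Between embryos the medians were -0.108 and -0.022. Deviations from a group mean cancel within the group, so such values tend to be negative by construction. The fit with embryo as a block was used as the paired alternative. Other alternatives were RLE and total-count scaling, no count filter, more than 20 counts, limma-voom (limma 3.58.1), DESeq2 1.42.0, the library prefix as a covariate, summing libraries of the same region and embryo, and leaving out each library. Leaving out the 2 libraries with high markers of another tissue, or both St. 14 whole embryos, and the embryo block for the stage interaction were added after seeing the data.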

Additional observations from a re-analysis of the deposited data

Results flagged for a closer look

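Of 232 pairs of a named member and a group of 4 to 10 libraries, 12 held 1 library far from the others of its group by Dixon's criterion, which chance exceeds in about 5% of groups. At St. 12.5, cdc20b-like.l was at 0.896 CPM in NBa replicate 2 and at 0.346 to 0.399 in the other NBa libraries. At St. 14, cdc25b.s was at 65.3 CPM in NBa replicate 5 (others 1.4 to 25.3) and at 56.4 in NBp replicate 5 (others 1.58 to 14.2), and ccne1.s in the same NBp library was at 162 (others 79.1 to 101). NPp held cdc14a-like.l at 42.5 CPM in replicate 4 (others 17.2 to 19.3) and cdc42se2-like.2.s at 3.08 in replicate 1 (others 5.68 to 5.79). The checkpoint kinase gene chek1.s was at 30.9 CPM in NBa replicate 1 (others 16.6 to 21). In NBp, ccnd2.s was at 4.06 CPM in replicate 1 (others 0.279 to 1.1) and plk4.l at 60.1 in replicate 2 (others 28 to 34.3). In ANF/PPE, ccnd2.l was at 2.16 CPM in replicate 3 (others 0.818 to 1.1) and ccnb3.s at 266 in replicate 2 (others 97.7 to 130). At St. 17, plk4.s was at 11 CPM in NC replicate 2 (others 18.5 to 19.5).

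The change from St. 12.5 to St. 14 differed between neural plate and nonneural ectoderm in 13 members, by the interaction term of the edgeR fit. These were 10.5% of cycle members and 12.5% of the other names, near the 12.1% of all loci. Leaving out 1 library lowered the count to as few as 7. The log2 difference of the changes was negative for ccna1.l (-4.26), ccna1.s (-2.54), ccne2.l (-1.31), ccnd1.s (-1.22), ccnd1.l (-1.22), cdkn2aip.s (-0.87) and cdc40.s (-0.73). It was positive for chek1.l (0.83), plk3.s (1.2), cdc42bpa.s (1.63), cdc42ep4.s (1.90), cdc14a-like.s (2.34) and cdc25b.s (2.92).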

How the results depend on the processing

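The 188 values of named genes were recomputed in 5167 alternatives: 4823 kept their direction and side of the threshold, 343 lost their call (85 of these not by leaving out a library) and 1 reversed, mcm6.l between border and plate at St. 14, at -0.15 with the replicate block on embryo number. For border against plate at St. 12.5 the count of 1 became 2 without a count filter, 4 with DESeq2, 2 with the library prefix and 4 without the libraries that stood apart. At St. 14 it fell from 17 to 11 without them. For anterior against posterior at St. 14 the 4 calls became 2 without a filter, 0 with the block, 1 with libraries of an embryo and region summed, 2 with the prefix and 2 without the libraries that stood apart. With the block, calls over all loci fell from 1477 to 258. The 13 interactions became 8 without a filter. The cause of these shifts was not tested. With the embryo as a block, border against plate at St. 14 had 12 calls, of which 9 were shared. Among regions, the block kept 51 of 57 calls and gained 12 at St. 12.5, and kept 60 of 67 and gained 6 at St. 14. All 50 and 64 calls of plate against nonneural ectoderm were kept, with 5 and 11 gained, and the 13 interactions were kept, with 3 gained (this last fit was added after seeing the data).

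Leaving out each library in turn gave 43 to 65 calls among regions at St. 12.5, 34 to 60 for plate against nonneural ectoderm, 0 to 4 for border against plate and 7 to 10 for the axis. At St. 14 these ranges were 55 to 72, 58 to 69, 11 to 18 and 1 to 6. They were 82 to 94 for stage, 7 to 13 for the interaction, 93 to 100 and 88 to 95 for whole embryos over all stages and late against early, and 5 to 25 for crest against placode. No paired analysis was possible because no embryo number is shared between stages, for the stage and whole embryo comparisons, and the labels give none for crest and placode. cdkn2c.l had no value with the filter at more than 20 counts. Members near 0 CPM, such as ccna1.l in NP and NNE, rest on few counts.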
